A study of Mus musculus with 8 samples.

Results

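The genes described here encode the scaffold and signalling proteins of the postsynaptic density and the proteins that accompany AMPA receptors to the synapse. They are 33 named genes among 17678 measured in mouse hippocampus: the Dlg, Dlgap, Shank and Homer scaffolds, the actin and small-GTPase regulators bound to them, and the stargazin-like (Cacng), cornichon (Cnih2), Grip1 and Pick1 proteins that act on AMPA receptors. All 33 were found in all 8 libraries, and all 33 passed the filters on low values. The tissue was the hippocampus of C57BL/6 mice. There were 4 groups of 2 libraries: mice in which Ptk2b, the gene of the tyrosine kinase Pyk2, was knocked out by CRISPR (KO), mice whose Pyk2 has its tyrosine autophosphorylation site replaced by phenylalanine (Y402F), and wild-type animals kept as controls for each line (KO controls and Y402F controls). The substitution removes the residue at which Pyk2 phosphorylates itself and leaves the gene in place. Age, the part of Ptk2b deleted and whether a library came from 1 animal or a pool are not given in the sources used here, so the spread between the libraries of a group may be partly technical.

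The postsynaptic density is the protein layer beneath the membrane of an excitatory synapse. Dlg proteins (membrane-associated guanylate kinases, of which Dlg4 is PSD-95) hold receptors near the membrane, Dlgap proteins join them to Shank proteins, and Shank proteins join Homer and the actin cytoskeleton. Stargazin-like proteins and cornichons bind AMPA receptors, alter their gating and help bring them to the surface, where Dlg4 anchors the stargazin-like proteins. In the hippocampus this machinery sets how many AMPA receptors a spine holds, and Pyk2 has itself been described as a binding partner of Dlg4. All of this is background.

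The 2 mutant groups and the 2 control groups were deposited as different kinds of table. The mutant tables hold expected counts and FPKM (fragments scaled by transcript length and by the number of fragments in the library), the control tables only FPKM in another layout. Genotype and the way a table was made therefore cannot be told apart in any comparison of a mutant with its controls. KO against Y402F and KO controls against Y402F controls each compare libraries of 1 kind of table. Levels below are FPKM multiplied by 1 factor per library so that the median gene is equal across libraries (scaled FPKM). Total expected counts per mutant library ran from 5756180 to 6017219; the depth of the control libraries is unknown.

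The targeted gene separated the groups. In scaled FPKM, Ptk2b stood at 56 and 68.6 in KO, 353 and 396 in Y402F, 309 and 308 in the KO controls and 324 and 317 in the Y402F controls. Its transcripts were thus reduced, not absent, in KO (log2 difference from KO controls -2.30, SE 0.11, limma adjusted p = 2.43e-06), and in Y402F they did not pass the test (0.22, SE 0.11, limma adjusted p = 0.143). The libraries also differed in ways the labels do not give. Xist and Ddx3y showed a female pattern in KO 1, Y402F 1 and both KO controls and a male pattern in KO 2, Y402F 2 and both Y402F controls. Choroid plexus markers summed to 754 scaled FPKM in Y402F 2 and to 1150 and 1170 in its controls. The remaining 5 libraries had 39.8 to 54.1. Excitatory neuron markers (7 genes) summed to 1680 to 2360 over the libraries.

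Promoter sequence was read for the genes whose levels the results turn on. RefSeq (GRCm38.p6) gave at least 1 promoter for 30 of the 33 genes, 53 in all. Iqsec1 is shown because it had the smallest p in both comparisons of a mutant with its controls. It has 2 starts listed in RefSeq, 93.6 kb apart, which the gene-level values do not separate. Its span in the control tables reaches further upstream, to 90988685, and that end is covered by neither sequence. Cnih2 is shown as the gene that was higher in one control pair than in the other. Each sequence is the 250 bases before the start, 5′ to 3′ on the gene's strand, with capitals on the GC box GGGCGG or its complement CCGCCC.
Iqsec1, upstream start, chr6:90810124-90810373, minus strand: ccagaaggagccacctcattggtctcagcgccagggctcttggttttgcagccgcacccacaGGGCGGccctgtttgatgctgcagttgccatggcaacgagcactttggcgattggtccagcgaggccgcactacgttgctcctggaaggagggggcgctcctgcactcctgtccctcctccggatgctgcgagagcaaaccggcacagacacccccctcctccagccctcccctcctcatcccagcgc
Iqsec1, downstream start, chr6:90716530-90716779, minus strand: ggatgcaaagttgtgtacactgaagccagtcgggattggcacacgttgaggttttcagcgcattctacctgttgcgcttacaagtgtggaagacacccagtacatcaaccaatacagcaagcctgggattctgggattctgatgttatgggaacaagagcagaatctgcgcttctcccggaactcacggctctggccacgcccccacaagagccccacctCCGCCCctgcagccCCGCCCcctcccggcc
Cnih2, chr19:5098522-5098771, minus strand: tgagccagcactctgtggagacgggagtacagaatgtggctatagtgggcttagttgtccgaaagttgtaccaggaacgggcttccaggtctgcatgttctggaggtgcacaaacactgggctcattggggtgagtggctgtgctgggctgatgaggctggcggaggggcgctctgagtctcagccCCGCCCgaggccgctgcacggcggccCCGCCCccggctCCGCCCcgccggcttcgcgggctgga
The upstream Iqsec1 promoter holds 1 GC box, the downstream one 2 and Cnih2 3. Over the whole group, 29 of 53 promoters (54.7%) held a GC box on either strand, against 32.7% of 32851 promoters of all genes cut to the same length. The median GC content was 60.8% in the group and 52.4% over all promoters. The cAMP response element TGACGTCA was found in 0 of the 53 (1.55% of all promoters), and GCGTGGGCG, the letters bound by Egr factors, in 1, a promoter of Shank3 (0.536% of all). These are matches of letters and describe the windows only.

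As a group the genes were abundant and long. Their median level was 57.4 scaled FPKM, against 10.8 over the 12954 genes tested, and their median transcript length was 4822 bases (1362 to 10977), against 2833. Levels per length ran from a mean of 536 scaled FPKM for Cnih2, an AMPA receptor cornichon, to 4.08 for Grip1, a multi-PDZ protein that binds the tail of AMPA receptor subunits. After Cnih2 came Dlg4 at a mean of 490, Ppp1r9b (spinophilin, which brings protein phosphatase 1 to spines) at 457 and Agap2, a GTPase-activating protein for Arf, at 259. The libraries of Cnih2 (410 to 642), Dlg4 (370 to 654) and Ppp1r9b (413 to 502) overlapped, so the order of these 3 is not resolved. Agap2 (218 to 296) lay below all of them. Baiap2, Dlgap4, Kalrn, Dlgap3 and Dlgap1 followed with means of 130 down to 101, each overlapping the next in its range. The 33 genes summed to 2980 to 3290 scaled FPKM in the mutant libraries and to 3168 to 3470 in the controls, and these ranges overlap.

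**Figure D1:**
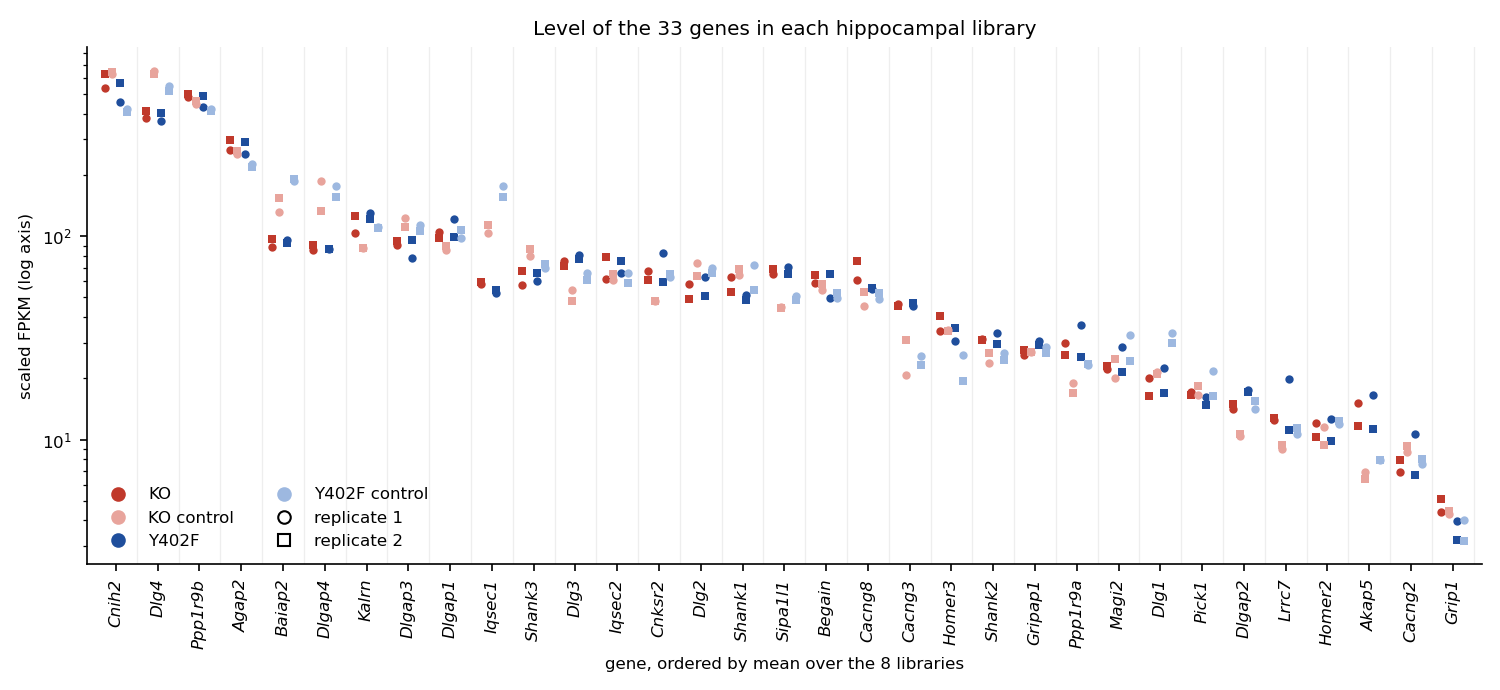
Scaled FPKM (log axis) of the 33 genes in each of the 8 libraries, with colour for the group and circles or squares for replicates 1 and 2. Cnih2, Dlg4 and Ppp1r9b lie highest, Grip1 lowest, and the darker mutant points fall below the paler control points for Dlg4, Baiap2, Dlgap4 and Iqsec1.

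The comparison of KO with Y402F asks whether the knockout differs from loss of the autophosphorylation site, in libraries deposited as 1 kind of table. None of the 33 genes passed the test in either direction (edgeR's quasi-likelihood test, adjusted p under 0.05), and 0 had an unadjusted p under 0.05. DESeq2 and limma on scaled FPKM likewise called 0, with 0 at an unadjusted p under 0.05. With 1 library left out the calls remained 0, but 5 genes had an unadjusted p under 0.05 without Y402F 2, the mutant library with high choroid plexus markers, and 1 without KO 1. Over all 13473 genes, 2 were called (0.0148%), of which Ptk2b was one, and 261 had an unadjusted p under 0.05. The differences of the 33 ran from -0.29 to 0.31 on the log2 scale with a median of -0.01. Of them 13 were positive and 20 negative, and standard errors were 0.10 to 0.22.

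The intervals say how large a difference these 4 libraries could have missed. For 29 of the 33 genes the 95% interval lay inside a 1.5-fold change in either direction, and for all 33 inside a 2-fold change. Dlg4 had 382 and 415 scaled FPKM in KO and 370 and 404 in Y402F, with a log2 difference of 0.04 (95% interval -0.18 to 0.27). Ppp1r9b had 483 and 502 in KO and 432 and 489 in Y402F, with a difference of 0.10 (-0.11 to 0.30). The groups overlapped for both genes.

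Cacng8, the stargazin-like protein gamma-8, which is the typical hippocampal member of its family, had the smallest p. It stood at 60.6 and 75.2 scaled FPKM in KO and at 54.8 and 55.6 in Y402F. The KO libraries lay above the Y402F libraries. The log2 difference was 0.30 (SE 0.15) and did not pass the test (edgeR adjusted p = 0.999). It was 0.15 without KO 2 and 0.44 without KO 1. Grip1 had the highest estimate, 0.31 (95% interval -0.12 to 0.74), at 4.4 and 5.12 scaled FPKM in KO and 3.98 and 3.21 in Y402F. Its expected counts were 123 and 125 against 110 and 91. The lowest estimate was that of Lrrc7 (densin-180, a leucine-rich repeat protein of the density), and it rested on 1 library: Y402F 1 had 19.8, Y402F 2 11.2 and the KO libraries 12.5 and 12.8.

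**Figure D2:**
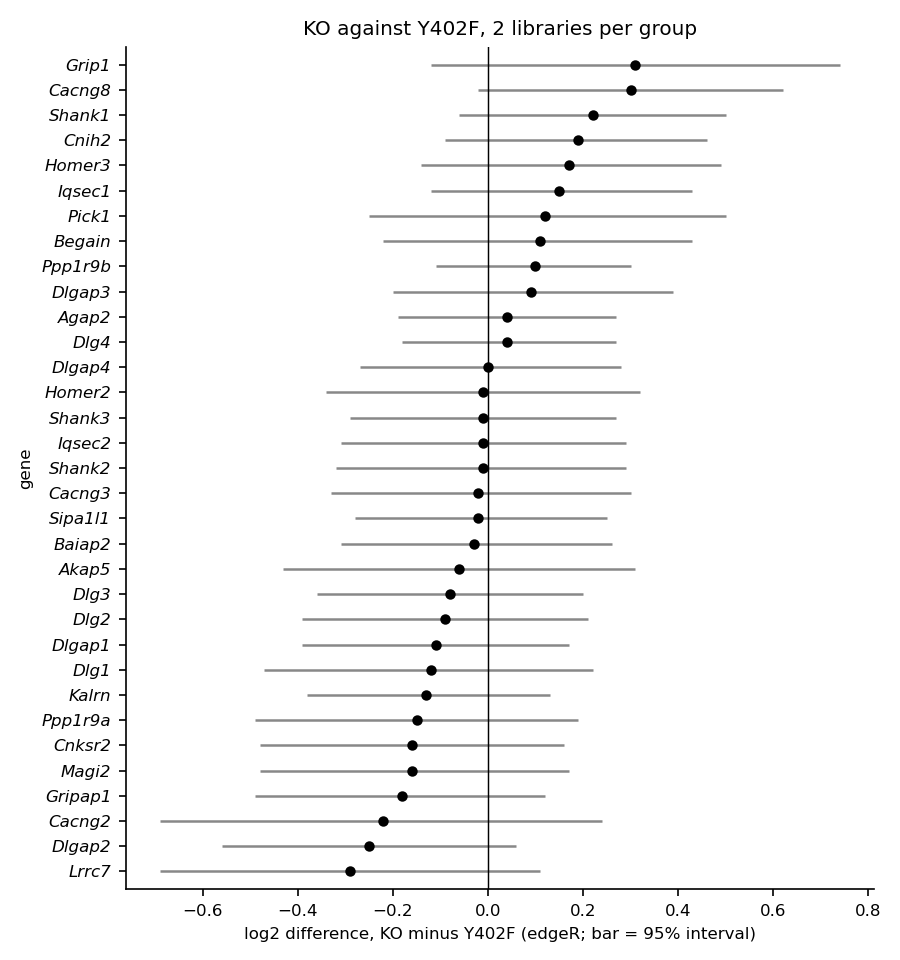
Log2 difference of KO minus Y402F for each of the 33 genes from edgeR (points) with 95% intervals (bars), 2 libraries per group. Every interval crosses 0, and none reaches beyond -0.69 or 0.74.

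Each mutant was then set against its own wild-type controls. In KO, 8 genes were higher and 6 lower than in the KO controls (limma on log2 of scaled FPKM + 1, adjusted p under 0.05), which is 42.4% of the 33. The background in this comparison was 37.6% of 12954 genes, 16.6% higher and 20.9% lower. In Y402F, 6 were higher and 5 lower than in the Y402F controls, 33.3% of the 33, against a background of 32.3%, 13% higher and 19.3% lower. The shares of the 33 that were called were thus close to those of all genes. Their median log2 difference was 0.11 in KO and 0.12 in Y402F, against 0.00 over all genes in both. Long transcripts stood higher in KO as a whole: among the 25% of genes with the longest transcripts, which hold 22 of the 33, the median was 0.17 and 23.6% were called higher. Those 22 had a median of 0.13. In Y402F the same genes had medians of 0.03 over all and 0.13 for the 22, with 11.5% of all called higher. With no scaling of the libraries, which moves the median gene by -0.12 in both comparisons, the calls split into 4 higher and 7 lower in KO and into 2 higher and 8 lower in Y402F. With quantile normalization they split into 15 higher and 4 lower in KO and 12 higher and 5 lower in Y402F. Leaving out any library of the Y402F comparison, Y402F 2 among them, changed which of the 33 genes were called there. The change was in both directions except without Y402F 1, where the higher calls alone changed.

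Both mutants shared 8 of these calls in direction. Sipa1l1, Dlg3, Cacng3 and Akap5 were higher in both, where 9.03% of all genes were higher in both, and Iqsec1, Dlg4, Baiap2 and Dlgap4 were lower in both, where 14.1% of all genes were. These 8 are 57.1% of the genes called in KO and 72.7% of those called in Y402F. Over all genes, 1170 were higher and 1829 lower in both, of 4867 called in KO and 4183 called in Y402F. The sharing of calls was thus near that of all genes. The 2 comparisons share no library but share the difference between the table kinds. Called in neither were 16 genes, among them Shank1, Shank2, Homer2, Cacng2, Grip1, Pick1, Gripap1, Iqsec2 and Ppp1r9b. The share of all genes called in neither was not counted.

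Cell type markers moved in the same comparisons. Of 7 excitatory neuron markers, 4 were higher and 0 lower in each mutant than in its controls. Their sum was 2160 to 2360 scaled FPKM in the mutant libraries and 1680 to 1790 in the controls. Camk2a made up most of it, with means of 1330 in KO, 1310 in Y402F and 1070 and 975 in their controls. It is also counted below among the other postsynaptic genes. Of 9 pan-neuronal markers, 5 were higher and 3 lower in KO, and 3 and 2 in Y402F. Of 8 dentate granule cell markers, 5 were higher in KO and 2 in Y402F, and 0 lower. With no scaling, 2 of the 7 excitatory markers were higher in each mutant, and the granule cell markers had 3 higher in KO and 1 higher and 1 lower in Y402F. The 8 astrocyte markers summed to 872 to 981 in the mutants and 1460 to 2080 in the controls. Of them, 2 were higher and 3 lower in KO, and 0 higher and 2 lower in Y402F. Their median log2 difference was 0.09 in KO and -0.03 in Y402F, so the lower sums do not describe the typical astrocyte marker. The 8 oligodendrocyte markers had 2 higher and 3 lower in KO, and 4 higher and 2 lower in Y402F. The part of these shifts in the results on the 33 genes was not tested. In tissue RNA, fewer cells of a type and less RNA per cell cannot be told apart.

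Among the Dlg scaffolds, the most abundant gene was lower and a scarcer one higher in both mutants. Dlg4 (PSD-95) was at 382 and 415 scaled FPKM in KO and at 654 and 628 in the KO controls. In Y402F it was at 370 and 404, and in the Y402F controls at 547 and 521. All 4 mutant libraries lay below all 4 control libraries. On the log2 scale it differed by -0.69 (SE 0.08) in KO and -0.47 (SE 0.08) in Y402F, with limma adjusted p of 0.000307 and 0.00266. Separation of groups was common among the 33 genes. In each mutant, 25 of the 33 had no overlap with the controls of that line, more than were called. Between the 2 control pairs 22 had none. The share of all genes without overlap was not counted.

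Dlg3 (SAP102, a scaffold known for its role in early synapses) went the other way. It was at 75.9 and 71.6 in KO, 81.1 and 76.9 in Y402F, 54.7 and 47.8 in the KO controls and 66.1 and 61 in the Y402F controls. Every mutant library was above every control library. The differences were 0.52 (SE 0.10, limma adjusted p = 0.005) and 0.31 (SE 0.10, limma adjusted p = 0.0481), and the call in Y402F was lost without any 1 of its 4 libraries (0.26 to 0.37, adjusted p 0.0832 to 0.211). It was also lost with no scaling (0.16, adjusted p = 0.268), with a sex term (0.27, adjusted p = 0.0861), with no filter, without the trend and with only the 2 groups fitted (0.31 each, adjusted p 0.0526 to 0.102).

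Dlg1 (SAP97, which also binds AMPA receptor subunits) was at 20 and 16.4 in KO, 22.6 and 17 in Y402F, 21.6 and 20.9 in the KO controls and 33.5 and 29.7 in the Y402F controls. The Y402F controls were the group that stood apart. It was called lower in Y402F (-0.66, SE 0.16, limma adjusted p = 0.0155), a call lost without Y402F 2 (-0.46, adjusted p = 0.0896) or without Y402F control 1 (-0.57, adjusted p = 0.0817). Dlg2 (PSD-93) was at 48.9 to 62.7 in the mutants and 63.9 to 73.6 in the controls. These ranges did not overlap either, yet it was called in no comparison.

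Because of these differences the make-up of the family differed. Dlg4 was 69 to 75.2% of the summed Dlg level in the mutant libraries and 76.4 to 82.6% in the controls. Dlg3 was 13 to 15.1% in the mutants and 6.28 to 9.22% in the controls.

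Among the Dlgap proteins, which bind the guanylate kinase domain of Dlg scaffolds, only Dlgap4 was called in both mutants. Dlgap4 was at 85.2 and 90.3 scaled FPKM in KO, 86.1 and 86.9 in Y402F, 187 and 133 in the KO controls and 177 and 156 in the Y402F controls. The 4 mutant libraries lay close together and below every control. The log2 difference was -0.83 (SE 0.15, limma adjusted p = 0.00314) in KO and -0.93 (SE 0.15, limma adjusted p = 0.00208) in Y402F.

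The other Dlgap genes differed less. Dlgap3 was called lower in KO (-0.34, limma adjusted p = 0.0484) and Dlgap2 was called higher in KO (0.42, limma adjusted p = 0.0249). Both calls were lost when any 1 of the 4 libraries was left out, with adjusted p of 0.0729 to 0.22 for Dlgap3 and 0.0656 to 0.106 for Dlgap2. The Dlgap3 call was also lost with quantile normalization (-0.04, adjusted p = 0.764), the replicate block (-0.34, adjusted p = 0.06), no filter (adjusted p = 0.0673) and no trend (adjusted p = 0.104), and the Dlgap2 call with no scaling (0.29, adjusted p = 0.0899) and only the 2 groups fitted (adjusted p = 0.0512). Dlgap1 (86 to 121 over the libraries) was called in neither mutant. Dlgap4 made up 28.4 to 30.2% of the summed Dlgap level in the mutants and 38.5 to 45.9% in the controls, while Dlgap1 made up 32.8 to 40% and 21.2 to 27.9%.

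**Figure D3:**
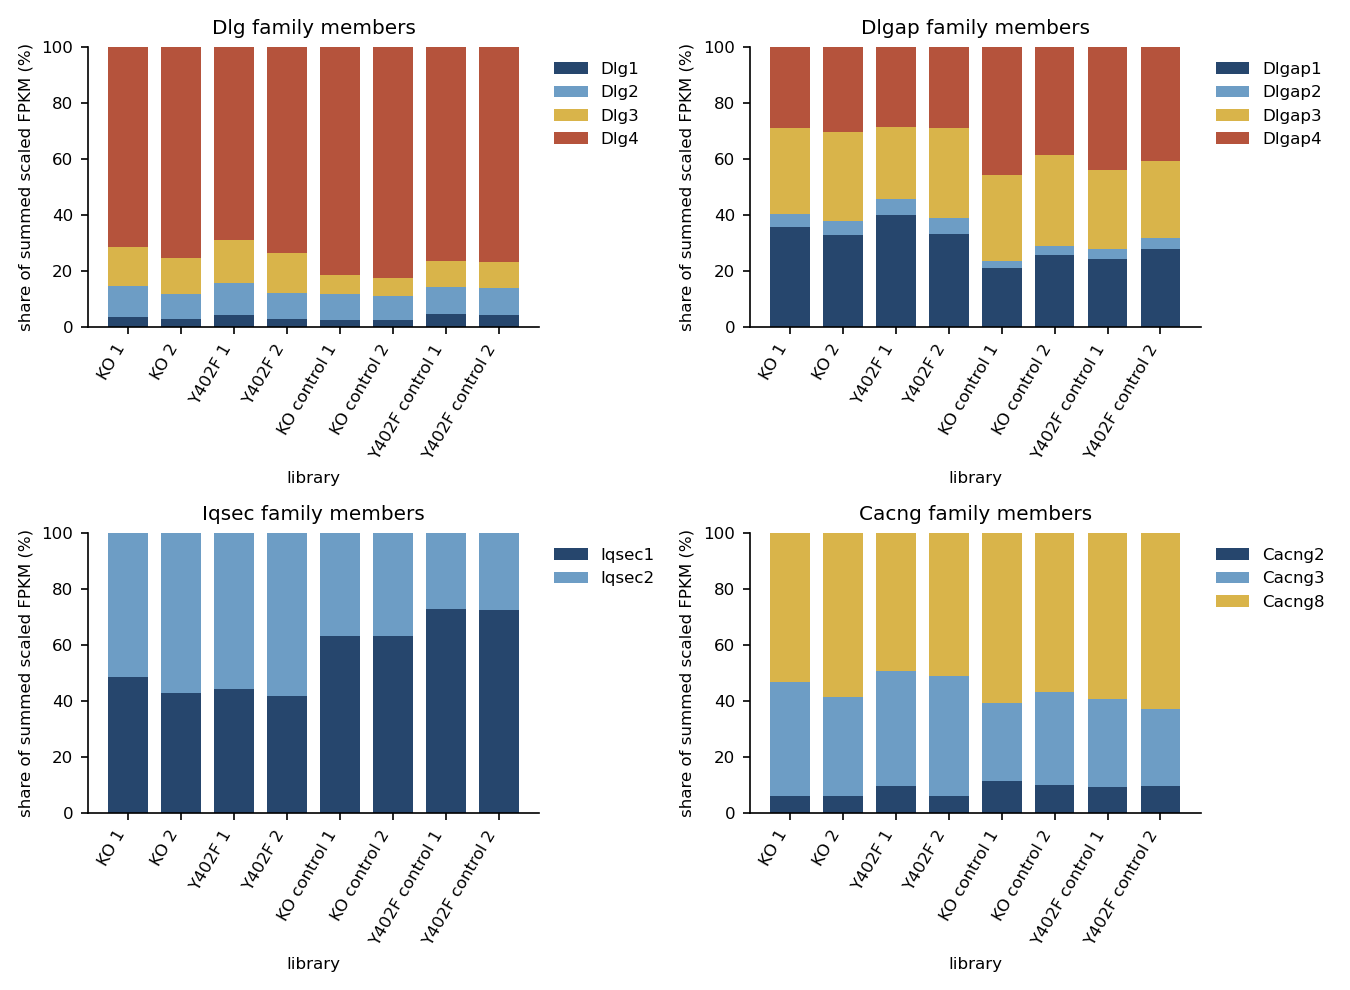
Share (%) of each gene in the summed scaled FPKM of its family, as stacked bars for the 8 libraries, for the Dlg, Dlgap, Iqsec and Cacng genes among the 33. Dlg3, Iqsec2 and Cacng3 take larger shares in the 4 mutant libraries than in the 4 controls, and Dlg4, Iqsec1 and Dlgap4 smaller ones.

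Of the Shank scaffolds, which sit deeper in the density, Shank3 alone was called. It was at 57.4 and 67.5 in KO, 60 and 65.7 in Y402F, 79.8 and 86.2 in the KO controls and 69.8 and 73.1 in the Y402F controls. The mutants lay below the controls in both lines. The log2 difference was -0.41 (SE 0.11, limma adjusted p = 0.0187) in KO, and -0.18 in Y402F, which did not pass. The call was lost without KO 1 (-0.29, adjusted p = 0.107) or KO control 2 (-0.35, adjusted p = 0.103), and with quantile normalization (-0.15, adjusted p = 0.263). Shank1 ran from 48.6 to 72.3, with no call. Shank2 was at 29.6 to 33.3 in the mutants and 23.9 to 26.6 in the controls, without overlap and with no call.

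Homer proteins link Shank to metabotropic glutamate receptors. Homer3 was at 34 and 40.7 in KO, 30.6 and 35.5 in Y402F, 34.7 and 34.1 in the KO controls and 26 and 19.4 in the Y402F controls. Here the Y402F controls were low, and the gene was called higher in Y402F (0.54, SE 0.16, limma adjusted p = 0.0324) and not in KO (0.11). It was lost without Y402F 1, Y402F 2 or Y402F control 2 (0.34 to 0.65, adjusted p 0.0591 to 0.177), and with no scaling (0.39, adjusted p = 0.0922), no filter, no trend or only the 2 groups fitted (adjusted p 0.0514 to 0.0588). Homer2 ran from 9.35 to 12.6, with no call.

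The adaptors and GTPase regulators held the largest difference seen in Y402F. Iqsec1 (BRAG2), an exchange factor for Arf6 that takes part in AMPA receptor internalization, lies at 90656088 to 90988685 on chromosome 6 of GRCm38. It was at 58.5 and 59.7 scaled FPKM in KO and 52.4 and 54.2 in Y402F. It was at 104 and 113 in the KO controls and 177 and 156 in the Y402F controls. The 4 mutant libraries formed 1 narrow range, and the 2 control pairs were each above it and apart from each other. The log2 difference was -0.87 (SE 0.09, limma adjusted p = 0.000249) in KO and -1.63 (SE 0.09, limma adjusted p = 8.61e-06) in Y402F. Its partner Iqsec2, on the X chromosome, ran from 59 to 79.4 with no call, so Iqsec1 was 41.8 to 48.6% of their sum in the mutants and 63.1 to 72.9% in the controls.

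Baiap2 (IRSp53), a membrane-bending protein that couples Rac and Cdc42 to actin, showed the same order of groups. It was at 88.7 and 97.2 in KO, 96.3 and 93 in Y402F, 132 and 154 in the KO controls and 186 and 192 in the Y402F controls. The mutants again shared 1 range below both control pairs. Its log2 difference was -0.61 (SE 0.10, limma adjusted p = 0.00185) in KO and -0.99 (SE 0.10, limma adjusted p = 0.000155) in Y402F.

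The precision that the control tables give differed between genes. The authors' upper confidence bound lay 18.3 to 22.1% above the value for Iqsec1 and 13.9 to 16.1% above it for Baiap2. For Dlgap4 it lay 11.6 to 12.2% above the value and for Dlg4 7.54 to 8.52%. The median over the 33 genes was 11.2%. Ppp1r9b, at 3.5 to 3.54%, was among the most precise, and Homer2, which was not called, had 21.1 to 29%. Iqsec1, Baiap2, Dlg4 and Dlgap4, the 4 genes lower in both mutants, have 9 to 22 annotated transcripts each in GENCODE M21 (median 12). The 4 genes higher in both have 3 to 11 (median 5.5), and the 16 called in neither 1 to 20 (median 6.5). The mutant tables list fewer transcripts for the same 3 sets, with medians of 2.5, 1.5 and 2 in that order. The part of transcript choice, or of the annotation used, in the differences was not tested.

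Sipa1l1 (SPAR), a GTPase-activating protein for Rap that binds Dlg4, was higher in both mutants. It was at 65.5 and 69.1 in KO, 70.6 and 65.4 in Y402F, 44.8 and 44.4 in the KO controls and 51 and 48.5 in the Y402F controls. All mutant libraries lay above all controls, by 0.58 (SE 0.09, limma adjusted p = 0.00172) and 0.44 (SE 0.09, limma adjusted p = 0.00744).

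Akap5 (an A-kinase anchoring protein), which anchors protein kinase A and calcineurin at AMPA receptors, was also higher. It was at 15.1 and 11.6 in KO, 16.6 and 11.3 in Y402F, 6.94 and 6.42 in the KO controls and 7.97 and 7.97 in the Y402F controls. No mutant library overlapped a control, and KO 1 and Y402F 1 were the higher mutant libraries. The differences were 0.89 (SE 0.20, limma adjusted p = 0.00871) and 0.71 (SE 0.20, limma adjusted p = 0.0253). The first was lost without KO 1 (0.72, adjusted p = 0.0734), the second without Y402F 1 (0.47, adjusted p = 0.142) or either Y402F control (0.72, adjusted p 0.0776 and 0.0812) and with no scaling (0.58, adjusted p = 0.0577).

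Kalrn (kalirin), an exchange factor for Rac in spines, was at 104 and 126 in KO, 130 and 121 in Y402F, 87.4 and 87.8 in the KO controls and 111 and 110 in the Y402F controls. It was called higher in KO (0.38, SE 0.11, limma adjusted p = 0.0213), where the controls were low, and not without KO 2, KO control 1 or KO control 2 (0.24 to 0.39, adjusted p 0.0757 to 0.107), with no scaling (0.24, adjusted p = 0.0948) or without the trend (adjusted p = 0.0607). Ppp1r9a (neurabin) was at 29.9 and 26.1 in KO, 36.4 and 25.6 in Y402F, 18.9 and 16.9 in the KO controls and 23.2 and 23.4 in the Y402F controls. It too was called higher in KO (0.62, SE 0.17, limma adjusted p = 0.0209) and not in Y402F (0.38), and the call was lost without KO 1, KO 2 or KO control 2 (0.52 to 0.71, adjusted p 0.0541 to 0.127) and with no scaling (0.48, adjusted p = 0.0544). Ppp1r9b, the abundant gene of this pair, was at 450 and 463 in the KO controls and 423 and 413 in the Y402F controls, near its mutant levels given above, and was called in neither. Agap2 was called higher in Y402F (0.29, limma adjusted p = 0.0455), and not without Y402F 2 or either control (0.19 to 0.32, adjusted p 0.106 to 0.177), with no scaling (0.14, adjusted p = 0.291), or with no filter, no trend or only the 2 groups fitted (adjusted p 0.0671 to 0.129).

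Among the AMPA receptor auxiliary genes, Cacng3 (gamma-3) was called in both mutants. It was at 46.2 and 45.6 in KO, 45.6 and 47 in Y402F, 20.7 and 31 in the KO controls and 25.9 and 23.2 in the Y402F controls. The 4 mutant libraries were nearly equal and all above the controls. On the log2 scale this was 0.83 (SE 0.17, limma adjusted p = 0.00594) in KO and 0.89 (SE 0.17, limma adjusted p = 0.00489) in Y402F.

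Cacng8 was at 45.2 and 53.1 in the KO controls and 49 and 52.4 in the Y402F controls, and its mutant values stand above. It was called higher in KO (0.45, SE 0.13, limma adjusted p = 0.0242) and not in Y402F (0.12), and the call was lost without KO 2 (0.30, adjusted p = 0.142) or KO control 1 (0.34, adjusted p = 0.137). It was also lost with a sex term (0.37, adjusted p = 0.0601), with no scaling (0.32, adjusted p = 0.0835), without the trend (adjusted p = 0.0521) and with only the 2 groups fitted (adjusted p = 0.0512). Cacng2 (stargazin itself) was scarce, at 6.67 to 10.7, with no call. Cacng3 was 35.4 to 43% of the summed level of Cacng2, Cacng3 and Cacng8 in the mutants and 27.8 to 33.2% in the controls. Other Cacng genes were not in this sum. Grip1 was at 4.32 and 4.44 in the KO controls and 4 and 3.18 in the Y402F controls, against 3.21 to 5.12 over the mutant libraries, and was not called. Pick1 ran from 14.8 to 21.8 and Gripap1 from 26 to 30.7, and neither was called.

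**Figure D4:**
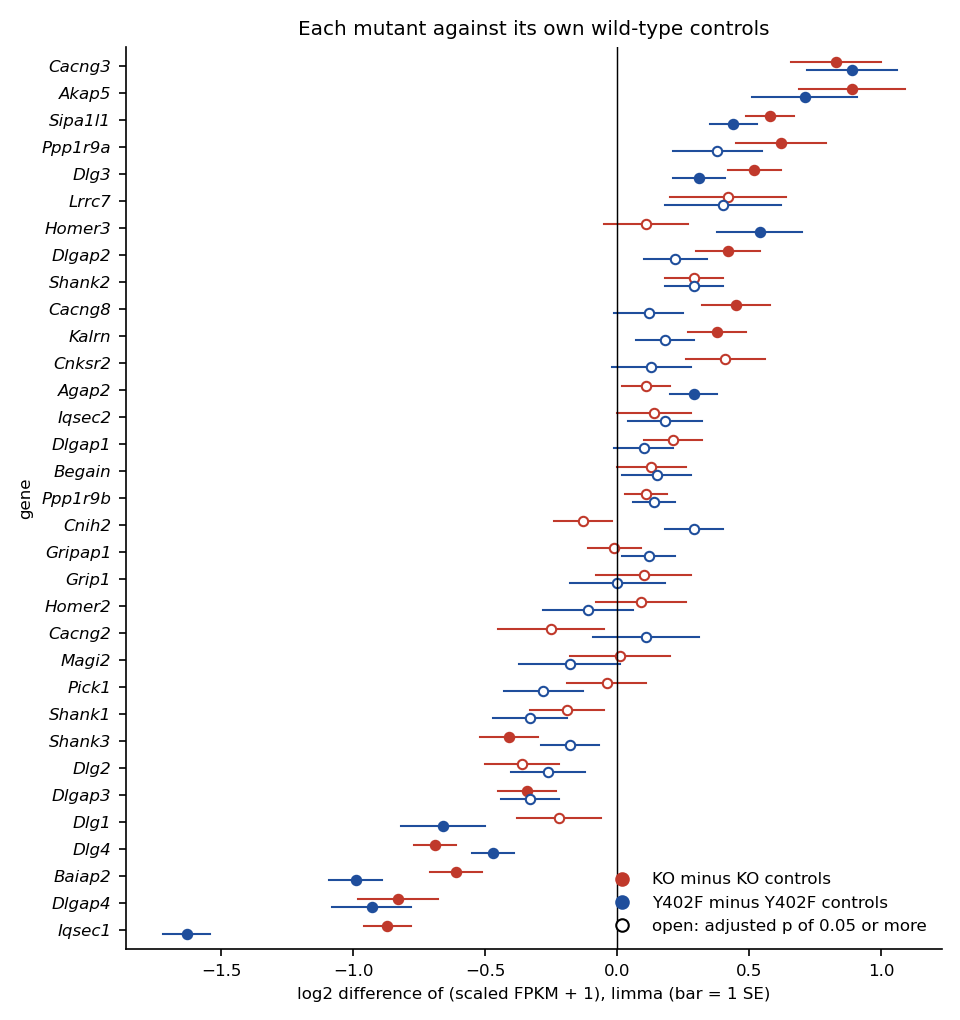
Log2 difference (of scaled FPKM + 1) of KO from KO controls and of Y402F from Y402F controls for the 33 genes, from limma, with bars of 1 SE and filled points for adjusted p under 0.05. Cacng3, Akap5, Sipa1l1 and Dlg3 are filled and positive for both mutants, and Dlg4, Baiap2, Dlgap4 and Iqsec1 filled and negative for both.

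The 2 wild-type pairs differed from each other for 3 of the 33 genes (9.09%), against a background of 7.97% of all genes, 4.82% higher and 3.15% lower in the KO controls. Iqsec1 was lower in the KO controls (-0.61, SE 0.09, limma adjusted p = 0.0153), and so was Baiap2 (-0.41, SE 0.10, limma adjusted p = 0.0439). Cnih2, which lies outside the rule for naming genes and is named after its values were seen, was higher in the KO controls (0.61, SE 0.11, limma adjusted p = 0.023). It was at 626 and 642 in the KO controls and at 421 and 410 in the Y402F controls. The mutant libraries, at 535 and 630 in KO and 456 and 567 in Y402F, were all above the Y402F controls, and KO 2 overlapped the KO controls. Each of the 3 calls was lost when 1 of the control libraries was left out: for Cnih2 (0.59 to 0.63, adjusted p 0.0743 to 0.0905) and Baiap2 (-0.52 to -0.30, adjusted p 0.0647 to 0.191) in all 4 such fits, and for Iqsec1 without KO control 1 (-0.56, adjusted p = 0.0641) or Y402F control 1 (-0.52, adjusted p = 0.0671). The pairs also differed in sex pattern, in the choroid plexus markers and by transcript length. The 25% of genes with the shortest transcripts, Cnih2 among them, had a median log2 difference of 0.21, and the 25% with the longest, Iqsec1 among them, -0.19. With a sex term in the fit, Iqsec1 (-0.57, adjusted p = 0.0369) and Cnih2 (0.88, adjusted p = 0.0036) were called and Baiap2 was not (-0.37, adjusted p = 0.119). Each control pair had a single sex pattern, so the size of that term came from the mutant libraries alone. In those the pattern followed the replicate number. This fit therefore could not separate sex from the other differences between the control pairs. The part of sex, of the choroid plexus markers and of transcript length in the 3 results was not tested.

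Whether the gap to the controls was wider in one line than in the other was tested as the KO difference minus the Y402F difference. It was called for 0 of the 33 genes by limma, with 3 at an unadjusted p under 0.05. Over all genes, 0.0309% were called. These 3 were the genes that also differed between the wild-type pairs: Iqsec1 (0.76, SE 0.13, limma adjusted p = 0.136), Baiap2 (0.38, limma adjusted p = 0.317) and Cnih2 (-0.42, limma adjusted p = 0.337). The difference between the wild-type pairs is part of this contrast by construction, so that match is not a separate result. Between KO and Y402F themselves, Iqsec1 differed by 0.15 on the log2 scale in edgeR (95% interval -0.12 to 0.43).

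Other genes of the same machinery were counted for context. Of 42 other postsynaptic scaffold and signalling genes tested, 11 were higher and 12 lower in KO than in its controls, and 10 and 12 in Y402F, or 54.8% and 52.4% called against the 37.6% and 32.3% of all genes. With no scaling the split was 7 and 12 in KO and 7 and 13 in Y402F, and with quantile normalization 16 and 10, and 14 and 11. Sharpin, a Shank-binding protein, had -1.76 in KO and -1.74 in Y402F, and Trio, a Rac exchange factor related to Kalrn, -1.03 and -1.14, all called. Arc, the activity-regulated protein that promotes AMPA receptor internalization, was higher in KO than in its controls (1.93, SE 0.16, limma adjusted p = 6.31e-05). It also differed between the wild-type pairs (-0.93, SE 0.16, limma adjusted p = 0.0194), and between KO and Y402F it did not pass (0.59, SE 0.17, edgeR adjusted p = 0.999). Of the 28 other AMPA receptor auxiliary and biogenesis genes, 4 were higher and 4 lower in KO, and 7 and 3 in Y402F. That is 28.6% and 35.7% called, against the 37.6% and 32.3% of all genes. Prrt2, a presynaptic and AMPA receptor-associated protein, was called lower in both. Its means were 160 and 166 scaled FPKM in KO and Y402F and 367 and 668 in their controls. It also differed between the wild-type pairs (-0.86, SE 0.11, limma adjusted p = 0.011). With no scaling of the libraries the calls on these 28 genes split into 2 higher and 5 lower in each mutant, and with quantile normalization into 13 and 4 in KO and 10 and 3 in Y402F.

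The receptor subunits and the inhibitory counterpart gave 2 further counts. Of the 4 AMPA receptor subunit genes, Gria1 (0.55 and 0.35) and Gria3 (0.47 and 0.50) were called higher in KO and in Y402F, and 0 were lower; with no scaling 1 of the 4 was called in KO and 0 in Y402F. Of 10 genes of the inhibitory postsynaptic site, 8 were higher in KO and 3 in Y402F, and 0 lower; Gphn (gephyrin, its main scaffold) had 0.50 and 0.43. With no scaling these counts were 5 and 1, and with quantile normalization 9 and 7. The background for higher calls, given above, was 16.6% in KO and 13% in Y402F. Between KO and Y402F, 0 genes of these 4 lists were called by edgeR, as for the 33.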

How the data were processed

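Hippocampal RNA was sequenced in 8 libraries (4 groups of 2). As deposited, each mutant table gives the authors' expected count per gene beside its transcript length and FPKM. Each control table, as deposited by the authors in Cufflinks layout, gives FPKM with confidence bounds but no counts. The submitters' processing notes name Bowtie 1, HISAT and mm9, and Cufflinks for the controls, but 99.8% of 17676 gene positions in the control tables share a start or end with GENCODE M21 on GRCm38, so coordinates are given on GRCm38. The program behind the expected counts is not stated. Entrez identifiers of the mutant tables were joined to the control genes through their symbol (17596) or GENCODE (88), which gave 17678 genes. FPKM was scaled by median ratios over 11443 genes.

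KO against Y402F was tested with edgeR 4.0.16 (quasi-likelihood, TMM, expected counts rounded to whole numbers, low counts filtered, 13473 genes). The other comparisons used limma 3.58.1 (trend on mean level) on log2(scaled FPKM + 1) over 4 groups, for the 12954 genes whose mean FPKM was 1 or more; this scale understates changes of low genes. The called threshold was a Benjamini-Hochberg adjusted p under 0.05 over all genes tested, and both tests were tested on simulated data. Residual degrees of freedom were 4 in limma and 2 in edgeR. The members and the gene lists were chosen with earlier results of these data known. Values in every library are given for the 12 called genes with the smallest adjusted p, the most abundant gene of each family and the gene with the smallest p in each comparison. Alternatives were DESeq2 1.42.0, other scalings, filters and pseudocounts, a sex term, a replicate block and leaving out each library.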

Additional observations from a re-analysis of the deposited data

How the results depend on the processing

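KO against Y402F gave 0 calls among the 33 genes under RLE size factors, DESeq2, limma, no filter, the replicate block and each library left out. For KO against its controls, the number of higher genes was 4 with no scaling and 15 with quantile normalization (8 as reported), and 4 to 5 with a library left out; the number of lower genes stayed at 4 to 7 over all settings. For Y402F against its controls, higher genes numbered 3 with no filter, 2 with no scaling, 12 with quantile normalization, 3 without the trend, 3 with only the 2 groups fitted and 2 to 5 with a library left out (6 as reported), and lower genes 8 with no scaling and 4 to 6 with a library left out (5 as reported). Between the controls, higher genes numbered 0 with no filter, 0 without the trend, 3 with a sex term, 2 with only the 2 groups fitted and 0 with any library left out (1 as reported). Lower genes there numbered 1 with no filter, 0 without the trend, 4 with a sex term, 1 with only the 2 groups fitted and 0 to 1 with a library left out (2 as reported). Similar counts did not always mean the same genes. Between the controls, 1 of the 3 higher and 1 of the 4 lower genes with a sex term were among those reported. The size of the sex term came from the mutant libraries alone, as described above. For the KO effect minus the Y402F effect, the sex term gave 1 lower gene, Cnih2 (0 as reported). None of the called differences of the 33 genes changed sign; uncalled ones were not followed, and with no scaling the median of the 33 moved to -0.03 in KO and -0.02 in Y402F. The causes were not tested, beyond there being fewer samples where a library was left out; a lone library was then assumed to vary like the other groups.

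Calls for Iqsec1, Baiap2, Dlg4, Dlgap4, Sipa1l1 and Cacng3 held in all 12 settings for both mutants, and for Dlg3 in KO. None of these settings changes the kind of table behind the mutants or the controls, so none separates it from genotype. Nothing in the labels says that a replicate number marks a shared animal, litter or batch. KO and Y402F libraries of the same number do share their sex pattern, and deviations correlated at 0.20 between KO and Y402F and at 0.05, -0.03 and 0.03 for the other pairs of groups. The fit with a replicate block gave 9 higher and 6 lower genes in KO, 6 and 5 in Y402F, 1 and 3 between the controls, and 0 otherwise, with 4 genes at an unadjusted p under 0.05 for KO against Y402F. Control depth is unknown, and 2 libraries per group limit every test.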

Other observations

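The libraries of 1 group differed among themselves for some of the 33 genes. Lrrc7 was 0.77 higher on the log2 scale in Y402F 1 than in Y402F 2, and Begain, a Dlg4-binding protein, 0.38 lower. Dlgap4 was 0.49 higher in KO control 1 than in KO control 2, and Cacng3 0.56 lower. The median absolute difference between the libraries of a group was 0.13 for the 33 genes in KO, 0.19 in Y402F and 0.10 in each control pair, against 0.17, 0.19, 0.15 and 0.15 over all genes.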
